A study of Homo sapiens with 10 samples.

Results

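The 8 genes described here encode proteins of the red cell membrane and its skeleton: EPB41, SPTB, ANK1, EPB42, SLC4A1, RHAG, GYPC and GYPB. They were taken by symbol from the 20535 genes listed in each library, and 7 of them averaged at least 1 TPM (a measure of the share of a gene in the RNA) and so entered the tests, as did 10127 genes in all. The libraries are RNA-seq of K562, an established human erythroleukemia line that makes embryonic and fetal globins, in which HS2, an enhancer of the β-globin locus control region, was targeted for repression. All 5 groups hold 2 libraries each. The sgGal4 control carried a nontargeting sgRNA, and the other 4 groups carried the HS2 sgRNAs with 1 of 4 repressors. The label of the control names no repressor. Comparisons with sgGal4 may therefore differ in the repressor as well as the sgRNA, and these cannot be told apart. The single effectors were dCas9-KRAB, labelled K, and dCas9-LSD1, labelled L. The dual effectors were enCRISPRi-LK, which joins dCas9-LSD1 to MCP-KRAB, and enCRISPRi-KL, which joins dCas9-KRAB to MCP-LSD1. KRAB is a repressor domain, LSD1 is a histone demethylase, and MCP is a protein that binds MS2 hairpins built into the sgRNA. The dCas9 fusions were induced by doxycycline, and the cells were sorted pools of transduced cells rather than clones. Nothing in the labels says that the 2 libraries of a group came from separate cultures, so p-values measure the spread between these libraries, which may be technical. K562 is a leukemia line of nucleated cells, which limits it as a model of the red cell membrane.

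None of the members lies on the chromosome of the β-globin locus. In hg19, EPB41 spans chr1:29213603-29446558 on the plus strand and GYPC spans chr2:127413709-127454243 on the plus strand. The other members are on the minus strand: GYPB at chr4:144917257-144940533, RHAG at chr6:49572888-49604552, ANK1 at chr8:41510739-41754259, SPTB at chr14:65213001-65346625, EPB42 at chr15:43489425-43513216 and SLC4A1 at chr17:42325758-42345509. These coordinates are those of the whole genes in the GENCODE annotation lifted to that build, from which the exon numbers given here were also taken.

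The red cell keeps its shape through a meshwork of spectrin and actin under the lipid bilayer. This skeleton is tied to the membrane at a pair of sites, one built on the anion exchanger band 3 with ankyrin, protein 4.2 and the Rh complex, and the other built on glycophorin C with protein 4.1. Inherited defects of these proteins cause spherocytosis and elliptocytosis, and several of them carry blood group antigens. Transcription of many of their genes rises during erythroid maturation, where GATA1 and KLF1 bind their promoters and enhancers.

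Promoter sequences from RefSeq (GRCh38.p14) were used for 6 of the 8 members, with 9 start sites between them. No entry was matched for SLC4A1. ANK1 was left out of the search, so the absence of a window for it says nothing about whether RefSeq lists one. The shares of windows and members below cover the 6 members searched. The 250 bases before each start were searched on both strands for the GATA motifs AGATAA and TGATAA. The search also took in CCACACCC, which erythroid factors of the KLF family bind, the GC box CCGCCC and the TATAAA element. AGATAA or TGATAA was present in 4 of the 9 windows, in 4 of the 6 members (EPB42, GYPB, RHAG and SPTB), and in 14.6% of the 35116 RefSeq promoter windows of that length. Neither window of EPB41, the member that passed a test below, held a GATA motif. Its windows held CCGCCC, which 42.6% of all windows held, and where 2 such matches overlap the capitals run on. Both EPB41 windows are shown because that gene carries the main result, and one window each of RHAG and GYPB for contrast, since these held a GATA motif 31 and 39 bases before the start. They lie at chr1:28886850-28887099 and chr1:28914319-28914568 (EPB41, plus strand), chr6:49636840-49637089 (RHAG, minus strand) and chr4:144019346-144019595 (GYPB, minus strand). Each is written 5′ to 3′ on the strand of the gene, and capitals mark the motif matches on either strand.
EPB41, upstream start: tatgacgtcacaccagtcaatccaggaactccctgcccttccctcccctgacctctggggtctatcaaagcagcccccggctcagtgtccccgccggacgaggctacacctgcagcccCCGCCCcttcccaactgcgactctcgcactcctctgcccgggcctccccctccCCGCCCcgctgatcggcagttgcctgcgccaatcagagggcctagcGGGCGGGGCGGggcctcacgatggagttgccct
EPB41, downstream start: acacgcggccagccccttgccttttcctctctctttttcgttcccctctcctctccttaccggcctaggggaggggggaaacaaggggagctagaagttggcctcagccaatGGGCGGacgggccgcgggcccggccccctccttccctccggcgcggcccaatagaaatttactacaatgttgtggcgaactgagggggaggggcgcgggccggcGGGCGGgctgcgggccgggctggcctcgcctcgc
RHAG: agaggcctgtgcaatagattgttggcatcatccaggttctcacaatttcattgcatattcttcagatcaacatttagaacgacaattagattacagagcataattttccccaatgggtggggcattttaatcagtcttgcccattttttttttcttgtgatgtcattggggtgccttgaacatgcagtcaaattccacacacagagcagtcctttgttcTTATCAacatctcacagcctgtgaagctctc
GYPB: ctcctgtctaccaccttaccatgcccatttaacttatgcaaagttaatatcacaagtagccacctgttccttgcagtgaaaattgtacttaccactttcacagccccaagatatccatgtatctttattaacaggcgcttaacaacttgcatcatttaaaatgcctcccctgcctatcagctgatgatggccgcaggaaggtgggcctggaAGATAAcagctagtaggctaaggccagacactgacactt
A match describes these letters only and is not evidence that a factor binds there.

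Levels of the members differed widely in these cells. The mean over the 10 libraries was 266 TPM for GYPC, 214 TPM for EPB41 and 156 TPM for RHAG, which exceeded the means of 97.6%, 96.9% and 95.5% of the genes tested. It was 84.8 TPM for ANK1, 41.1 TPM for GYPB and 18.3 TPM for SPTB. SLC4A1, which codes for band 3, averaged only 2.53 TPM, and EPB42, which codes for protein 4.2, averaged 0.394 TPM and was not tested. Members of the band 3 site thus ranged from low (SLC4A1 and EPB42) to abundant (RHAG and ANK1), and GYPC and EPB41 of the glycophorin C site were both abundant. The summed TPM of all members was 836 and 915 in the sgGal4 libraries, 738 and 673 for K, 886 and 863 for L, 760 and 789 for LK, and 696 and 672 for KL.

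Several facts of the libraries bear on these values. TPM is a share of all transcripts and keeps no record of depth, and mitochondrial genes took 39.9% to 53.6% of the listed TPM, with the highest share in sgGal4 replicate 1. Of the 14 erythroid markers, 13 averaged at least 1 TPM. No library had a value above 0 for GATA1 or for ACTG1, a cytoskeletal actin gene of every cell, so an exact 0 can be a failed estimate. The summed erythroid markers ran from 3932 to 3991 TPM in sgGal4, 3399 to 3490 TPM in K, 4126 to 5058 TPM in L, 2218 to 2276 TPM in LK and 2723 to 2859 TPM in KL. Globin genes, which include targets of HS2, made up most of that sum. HBZ, a globin gene outside the β-globin locus, was at 2712 and 1909 TPM with L against 1034 and 940 TPM in sgGal4. HBZ averaged 136.1% of the control with K, 82.53% with LK and 157.9% with KL. HBA1, also outside that locus, was at 113 and 83.1 TPM with L against 136 and 81.3 TPM in sgGal4. HBA2 stayed at or below 7.92 TPM. With L, the globin genes HBE1 and HBG2 of the β-globin locus averaged 66.94% and 66.45% of the control, while HBG1 of that locus averaged 95.4%. The summed erythroid markers other than globins ran from 382 to 518 TPM in sgGal4 and from 391 to 567 TPM in the other libraries. Among these, KLF1, an erythroid transcription factor gene, was at 20.2 and 24.1 TPM in sgGal4 and at 35.9 to 52.4 TPM elsewhere. KLF1 was called higher for the mean of the HS2 groups (log2 fold change 0.92, adjusted p = 0.00861), with K and with L, but not with LK or KL. That call under other settings is not reported here. The HS2 libraries averaged 91.6% of the control for TFRC, 102.8% for NFE2 and 112.8% for TAL1. They averaged 142.1% for ALAS2, 150.2% for GFI1B and 177.1% for EPOR. Markers of other blood cells were mixed. MPO and ELANE of 7 myeloid markers, CD3E, CD2, CD79A and MS4A1 of 6 lymphoid markers, and GP9, PF4 and VWF of 9 megakaryocytic markers were listed at 0. The summed myeloid markers ran from 7.16 to 23.0 TPM over the libraries. The summed lymphoid markers ran from 26.1 to 33.6 TPM in sgGal4 and from 1.65 to 21.3 TPM elsewhere, nearly all of it CD3D. The summed megakaryocytic markers ran from 102 to 109 TPM in K and from 53.9 to 73.3 TPM elsewhere, led by GP1BB. The part of these markers in the results was not tested. In bulk RNA, fewer cells of a type and less RNA per cell cannot be told apart. HBE1, the embryonic globin gene near HS2, was at 1376 and 1620 TPM in sgGal4 and at most 1019 TPM in the other libraries. The effector genes went partly against the labels. KDM1A, which encodes LSD1, averaged 29.0 TPM with LK and 26.7 TPM with KL. It averaged 94.4 TPM with L and was at 25.2 and 33.5 TPM in the sgGal4 libraries. ZNF10, the source of the KRAB domain, averaged 132 TPM with L and only 2.49 TPM with K, with 0.97 and 1.89 TPM in sgGal4. ZNF10 was at 36.8 and 31.5 TPM with LK and at 365 and 360 TPM with KL, whose labels do name KRAB. Groups are accordingly called by their labels, and "with K" means the libraries labelled K.

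EPB41 was the member with the clearest difference. It encodes protein 4.1, which strengthens the contact of spectrin with actin and binds glycophorin C, and its annotated canonical transcript has 21 exons. EPB41 was at 276 and 289 TPM in the sgGal4 libraries. It was at 198 and 171 TPM with K and at 257 and 220 TPM with L. With LK it was at 237 and 201 TPM, and with KL at 145 and 148 TPM. All 8 libraries with HS2 sgRNAs lay below both sgGal4 libraries, the KL pair lay below every other library, and only 5.29% of the genes tested separated the 8 from the 2 in this direction. The group mean was 283 ± 9.80 TPM (SD, n = 2) in sgGal4 and 147 ± 2.44 TPM (SD, n = 2) with KL, which is 51.9% of the control. It was 65.2% of the control with K, 77.5% with LK and 84.3% with L.

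**Figure D1:**
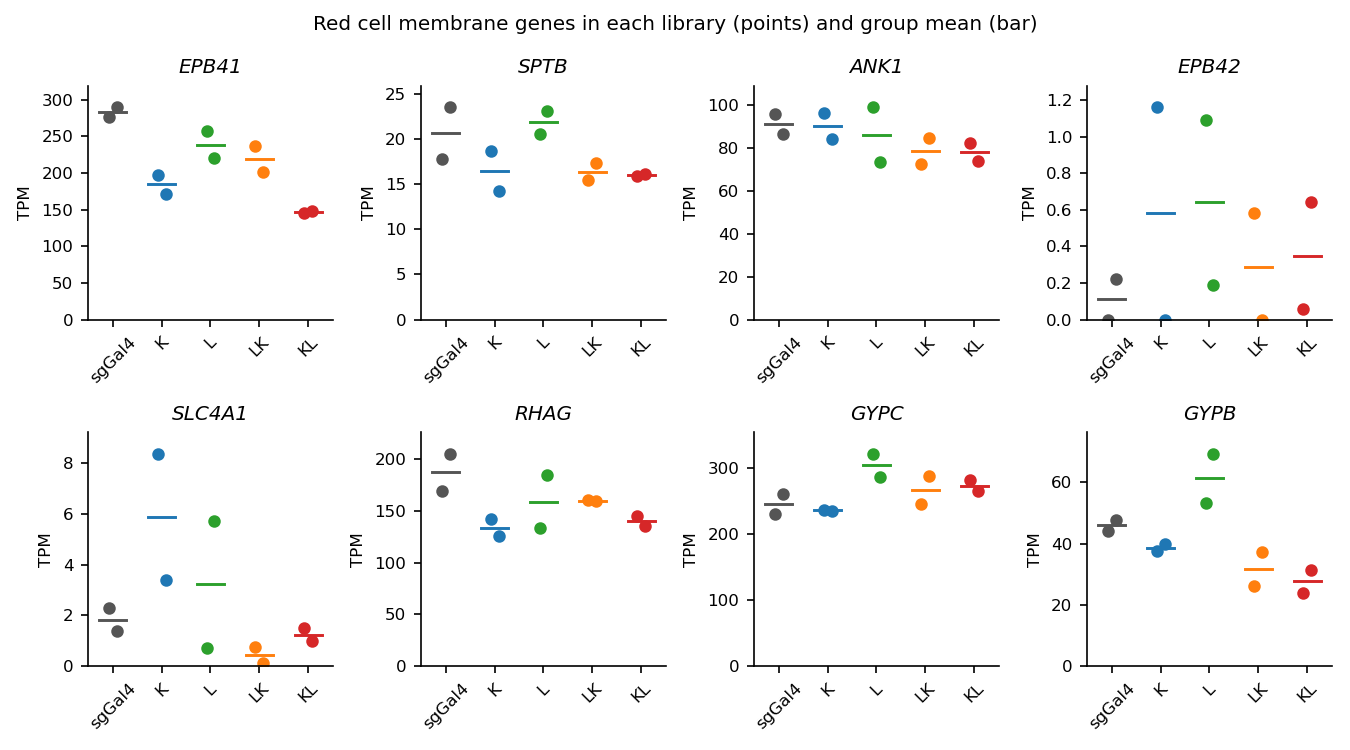
TPM of each member (vertical axes, linear from 0) in the 2 libraries of each of the 5 groups, with the group mean as a bar. EPB41 sits between 145 and 257 TPM in the 8 HS2 libraries and at 276 and 289 TPM in sgGal4, while EPB42 and SLC4A1 stay at or below 8.37 TPM.

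In the fit of log2(TPM + 1) by limma over all genes and groups, a gene was called when its Benjamini-Hochberg adjusted p was under 0.05. With KL, 1 of the 7 members tested was called, EPB41, where 1.36% of all genes were called (0.731% lower). Its log2 fold change from sgGal4 was -0.94 (SE 0.150, 95% interval -1.26 to -0.62, adjusted p = 0.00501). The fold change ranked 41 by p and 749 by size among the 10127 genes. The mean of the 4 HS2 groups was also lower for 1 of 7 members, again EPB41, with a background of 3.26% of genes called (1.48% lower). That log2 fold change was -0.54 (SE 0.119, adjusted p = 0.0245). A test for any difference among the 5 groups, which called 1.82% of genes, called EPB41 alone among the members (adjusted p = 0.0240).

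Against single groups, EPB41 had a log2 fold change of -0.62 with K (SE 0.150, adjusted p = 0.0567), -0.37 for LK (adjusted p = 0.272) and -0.25 for L (adjusted p = 0.530), none of which passed. The K value passed after median-of-ratios scaling (adjusted p = 0.0360), quantile normalization (0.0118), removal of mitochondrial genes (0.0161) or a filter at 10 TPM (0.0328). Between the groups labelled as dual effectors, EPB41 was higher with LK than with KL by 0.57 on the log2 scale (SE 0.150, 95% interval 0.25 to 0.89, adjusted p = 0.165). This difference between the 2 labelled groups did not pass the test. The KL call was lost when either KL library was left out, at an adjusted p of 0.0528 without replicate 1 and 0.0519 without replicate 2, and without the mean-variance trend (0.103). The call on the mean was lost without sgGal4 replicate 1 (adjusted p = 0.105) or 2 (0.101), L replicate 2 (0.0517) or LK replicate 2 (0.0612), and the call on any difference was lost without sgGal4 replicate 1 (0.0519) or KL replicate 1 (0.109) or 2 (0.112).

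**Figure D2:**
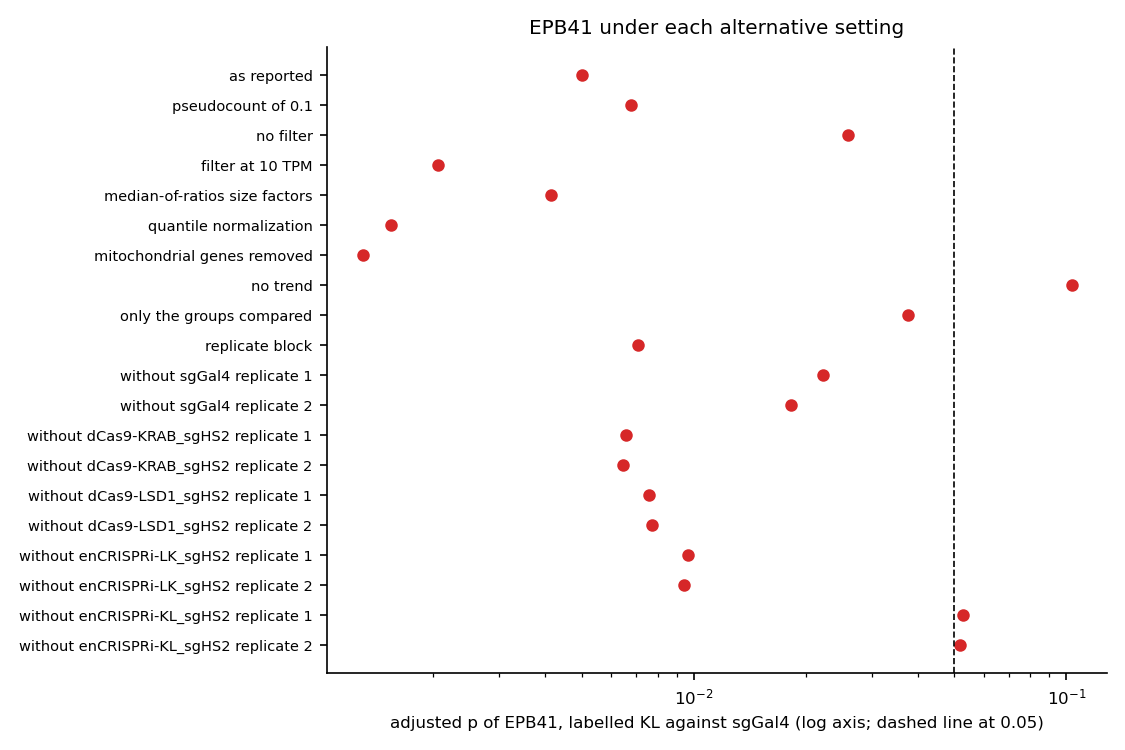
Adjusted p of EPB41, KL against sgGal4 (horizontal log axis), as reported and under each other setting, with a dashed line at 0.05. The points without KL replicate 1 (0.0528), without KL replicate 2 (0.0519) and without the trend (0.103) lie to the right of the line, and the rest to its left.

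The pair of genes whose log2(TPM + 1) followed EPB41 most closely over the 10 libraries were KLK13, a kallikrein protease gene (Pearson r = 0.935), and CYP51A1, which encodes an enzyme of sterol synthesis (r = 0.921). The libraries fall into 5 groups, so these values describe shared differences between groups and carry no test. KLK13 was at 18.2 and 16.9 TPM in sgGal4 and at 1.39 and 0.66 TPM with KL. CYP51A1 was at 41.5 and 39.7 TPM in sgGal4 and at 12.2 and 13.8 TPM with KL. As for EPB41, both genes were highest in sgGal4 and lowest with KL.

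Neither SPTB nor ANK1, the other members of the skeleton and its anchors that were tested here, was called. SPTB encodes β-spectrin, one chain of the spectrin tetramer. SPTB was at 17.8 and 23.5 TPM in sgGal4, 18.6 and 14.2 TPM with K, 20.6 and 23.1 TPM with L, 15.4 and 17.4 TPM with LK, and 15.9 and 16.2 TPM with KL. The log2 fold changes of SPTB from sgGal4 ran from -0.33 (KL) to 0.09 (L), with adjusted p of at least 0.626. Their 95% intervals were wide, at -0.91 to 0.24 with KL and -0.89 to 0.26 with K. Both libraries with LK and both with KL lay below the control pair. Such separation of 2 libraries from 2 is common here: it held for 43.6% of all genes for K, 41.3% for L, 45.7% for LK and 42.9% for KL. ANK1 encodes ankyrin, which ties spectrin to band 3. ANK1 was at 95.6 and 86.5 TPM in sgGal4, 96.2 and 83.9 TPM with K, 98.9 and 73.5 TPM with L, 72.7 and 84.7 TPM with LK, and 82.4 and 73.7 TPM with KL. Its log2 fold changes from sgGal4 ran from -0.22 (KL, 95% interval -0.63 to 0.19) to -0.02 (K, 95% interval -0.43 to 0.39), so a change of the size seen for EPB41 with KL lay outside these intervals.

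EPB42 encodes protein 4.2, which binds band 3 and ankyrin. EPB42 was listed at 0 in sgGal4 replicate 1, K replicate 2 and LK replicate 2, and the other 7 libraries ranged from 0.06 to 1.16 TPM. The libraries of a group differed as much as the groups did, and no fold change was computed. In its transcript, 16.4% of the 75-base windows also occur in an overlapping gene model, so its low values are uncertain. 

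SLC4A1 encodes band 3, the chloride and bicarbonate exchanger of the red cell. SLC4A1 was at 2.28 and 1.38 TPM in sgGal4, 8.37 and 3.41 TPM with K, and 0.73 and 5.72 TPM with L. With LK it was at 0.77 and 0.13 TPM and with KL at 1.50 and 0.98 TPM. The K pair lay above the control pair, the LK pair lay below it, and the L and KL pairs overlapped it. SLC4A1 passed the filter on low values largely through 3 libraries labelled K or L. Its comparison of dual with single effectors is therefore no independent result. L replicate 1 lay among the dual-effector libraries. The log2 fold change of dual against single effectors was -1.40 (SE 0.424, 95% interval -2.31 to -0.49), with an adjusted p of 0.400, and it was 1.20 with K against sgGal4 (SE 0.600, adjusted p = 0.357) and -0.98 with LK (adjusted p = 0.501).

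RHAG encodes the Rh-associated glycoprotein, a gas channel relative that the Rh proteins need to reach the membrane. RHAG was at 169 and 205 TPM in sgGal4, 142 and 125 TPM with K, 133 and 185 TPM with L, 160 and 159 TPM with LK, and 145 and 136 TPM with KL. The K, LK and KL pairs all lay below the control pair, and the L pair overlapped it. The log2 fold change from sgGal4 was -0.48 with K (SE 0.178, adjusted p = 0.206), -0.41 with KL (adjusted p = 0.305) and -0.34 for the mean of the 4 groups (SE 0.140, adjusted p = 0.236), and none passed.

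GYPC encodes glycophorin C, the membrane partner of protein 4.1, and was the most abundant member. GYPC was at 231 and 261 TPM in sgGal4, 236 and 236 TPM with K, and 322 and 287 TPM with L. With LK it was at 246 and 289 TPM and with KL at 282 and 265 TPM. The mean was highest with L, whose pair lay above the control pair, although LK replicate 2 lay between the L libraries, with a log2 fold change of 0.31 (SE 0.141, adjusted p = 0.386). With KL, where EPB41 fell, the log2 fold change of GYPC was 0.16 (95% interval -0.15 to 0.46), so its point estimate was on the opposite side of 0 from that of EPB41.

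**Figure D3:**
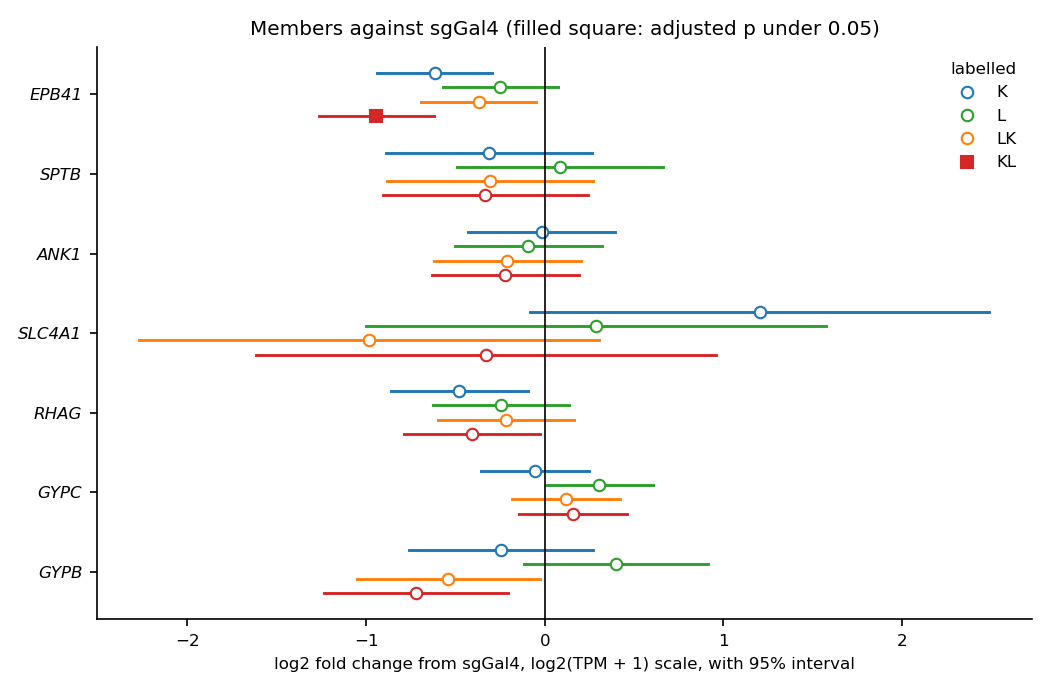
Log2 fold change from sgGal4 on the log2(TPM + 1) scale (horizontal axis) with 95% intervals for the 7 members tested, by labelled group. EPB41 with KL (-0.94) is the only filled square, which marks an adjusted p under 0.05, and the SLC4A1 intervals are the widest.

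GYPB encodes glycophorin B, a sialoglycoprotein that carries the S and s antigens. GYPB was at 44.2 and 47.8 TPM in sgGal4, 37.5 and 39.7 TPM with K, and 53.4 and 69.4 TPM with L. With LK it was at 26.3 and 37.2 TPM and with KL at 23.9 and 31.5 TPM. All 4 dual-effector libraries lay below all 4 single-effector libraries, as 1.78% of all genes did (3.33% in either direction), and the dual mean of 29.7 ± 5.89 TPM (SD, n = 4) compared with 50.01 ± 14.7 TPM (SD, n = 4) for single effectors. The highest dual library, LK replicate 2, and the lowest single library, K replicate 1, were close to each other at 37.2 and 37.5 TPM. The log2 fold change of dual against single effectors was -0.71 (SE 0.169, 95% interval -1.07 to -0.34). It ranked 46 by p among all genes but did not pass after adjustment (adjusted p = 0.199), in a comparison in which only 0.0889% of genes were called and 0 of the 7 members. At an unadjusted p under 0.05, 2 of the 7 members (GYPB and SLC4A1) were reached, where 7.45% of all genes were. SLC4A1 passed the filter on low values largely through single-effector libraries, so its place in this count is no independent result. Against sgGal4, the log2 fold change of GYPB was -0.72 with KL (SE 0.240, adjusted p = 0.167), -0.54 for LK (adjusted p = 0.325), -0.25 for K (adjusted p = 0.673) and 0.40 for L (adjusted p = 0.528).

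GYPB belongs to a cluster of closely related genes, and 18.6% of the 75-base windows of its transcript also occur in another gene. Reads from such stretches map to more than 1 place and were not used by the authors, so its values are uncertain. GYPE, a relative of GYPB in the cluster, was at 54.8 and 47.1 TPM in sgGal4, 58.2 and 38.6 TPM with K, 37.1 and 46.8 TPM with L, 39.1 and 28.4 TPM with LK, and 31.7 and 23.4 TPM with KL. Both dual pairs of GYPE lay below the sgGal4 pair, but the LK pair overlapped the K and L pairs. The log2 fold change of GYPE was -0.55 for dual against single effectors (SE 0.186, adjusted p = 0.498) and -0.88 for KL against sgGal4 (SE 0.263, adjusted p = 0.122), neither of which passed.

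Over the members as a group, few genes passed any test. In the fits against sgGal4, limma called 0 of 7 members with K, L and LK, where it called 1.62%, 0.869% and 2.00% of all genes. At an unadjusted p under 0.05 it reached 2 members with K, 1 with L and 2 with LK, against 15.6%, 12.8% and 14.2% of all genes, and 3 with KL against 14.7%. For LK against KL and for K against L it called 0 of 7 members, where 0.385% and 0.0395% of all genes were called, and reached 1 and 3 members at an unadjusted p under 0.05 (9.84% and 8.34% of all genes). The 3 members below that unadjusted threshold in K against L were EPB41, GYPB and GYPC, all lower with K, with log2 fold changes of -0.37, -0.64 and -0.36 and the same adjusted p of 0.533. The median log2 fold change over the 7 members was -0.25 for the K libraries, 0.09 for L, -0.31 for LK and -0.33 for KL, while the median over all genes was 0.06, 0.00, 0.03 and 0.05. These comparisons share the sgGal4 libraries. After removal of mitochondrial genes, the median over all genes fell to -0.06 with K and to -0.09 with LK, and the split of calls with KL went from 64 higher and 74 lower to 65 higher and 137 lower.

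Other genes of the membrane were read from 4 lists. In the spectrin and actin skeleton list, 11 of 14 genes were tested and 0 were called by limma in any comparison with sgGal4, with 1 to 4 of the 11 at an unadjusted p under 0.05, where 12.8% to 17.1% of all genes were. The shares of all genes called in these comparisons, given above for the members, are the background for every list. Among glycophorin, Rh complex and blood group genes, 13 of 18 were tested, and CD44 was lower with L (-1.10, adjusted p = 0.0423) and LK (-1.13, adjusted p = 0.0259). Over the mean of the HS2 groups, where 3.26% of all genes were called, 3 of the 13 were called: CD44, an adhesion receptor that carries the Indian antigens (-1.005, adjusted p = 0.00948), and CD55, a complement regulator (-0.73, adjusted p = 0.0325), were lower, and ICAM4, which carries the Landsteiner-Wiener antigens, was higher (1.01, adjusted p = 0.0493). CD44 was at 56.3 and 71.8 TPM in sgGal4 and at 26.9 to 38.3 TPM in the other 8 libraries. CD55 was at 117 and 85.4 TPM in sgGal4 and at 46.5 to 70.8 TPM elsewhere. Without sgGal4 replicate 2 the CD44 call was lost (adjusted p = 0.0999). Leaving out sgGal4 replicate 1, L replicate 2, or any LK or KL library ended the CD55 call (adjusted p up to 0.313), and leaving out any library but sgGal4 replicate 2 and L replicate 1 ended the ICAM4 call (up to 0.429).

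Among membrane transporters and channels, 13 of 16 genes were tested. STOM, which encodes the scaffold protein stomatin, was at 82.0 and 118 TPM in sgGal4 and between 26.1 and 66.9 TPM in the other 8 libraries. It was lower with K (-1.33, adjusted p = 0.0204), L (-1.52, adjusted p = 0.0122) and LK (-1.57, adjusted p = 0.00757) and for the mean (-1.26, adjusted p = 0.00352), a call lost only without sgGal4 replicate 2 among the libraries (adjusted p = 0.0605). AQP1, the water channel that carries the Colton antigens, was at 0.79 and 1.25 TPM in sgGal4 and between 2.14 and 7.85 TPM elsewhere. At these low control values the size of its log2 fold change depended on the settings. With K that size ran from 2.03 to 2.81 over the alternatives other than leaving out a library. AQP1 was called higher with K (2.10, adjusted p = 0.0182), with KL (1.97, adjusted p = 0.0208) and for the mean (1.55, adjusted p = 0.0151), the last of which was lost without either sgGal4 library (up to 0.171). CA1, a carbonic anhydrase gene, was listed at 0.92 and 0 TPM in sgGal4 and at 5.21 and 9.91 TPM with K. It passed the filter on low values through the K and L libraries, where it was high, so its call is no independent result. That call with K (adjusted p = 0.0492) was lost under 7 of 8 other settings (up to 0.165) and without any library other than an LK one (up to 0.268).

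Among broadly expressed relatives of the members, 11 of 15 genes were tested. SLC4A2, the anion exchanger that many tissues use in place of band 3, was at 87.1 and 104 TPM in sgGal4 and between 154 and 209 TPM in the other 8 libraries. It was called higher with K (0.75, adjusted p = 0.0391), L (0.86, adjusted p = 0.0267), LK (0.99, adjusted p = 0.00992) and KL (0.91, adjusted p = 0.0126) and for the mean (0.88, adjusted p = 0.00257), the last of which was lost without sgGal4 replicate 1 (adjusted p = 0.0501). SLC4A2 was thus far above SLC4A1 in TPM in every library. EPB41L3, a relative of EPB41 that was named after its values were seen, differed among the 5 groups (adjusted p = 0.0175), with 7.09 and 5.32 TPM with L and 25.4 and 26.0 TPM with KL, a call lost without L replicate 1 or 2 or KL replicate 2 (up to 0.115).

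The calls against single groups were lost in turn when certain libraries were left out. For AQP1 these were sgGal4 replicate 1 and the libraries of the group compared (adjusted p up to 0.125 with K and 0.166 with KL). For STOM they were sgGal4 replicate 2 and either K library (up to 0.148), sgGal4 replicate 2 and L replicate 2 (up to 0.145), or either LK library (up to 0.107). For CD44 they were all but the K libraries with L (up to 0.277), and sgGal4 and LK libraries with LK (up to 0.257). For SLC4A2 they were all but sgGal4 replicate 2 with K (up to 0.178), and sgGal4 replicate 1 and the libraries of the group compared with L, LK and KL (up to 0.190, 0.170 and 0.155). Without the mean-variance trend, these calls of STOM, CD44 and SLC4A2 were also lost, as were the calls of CD44, SLC4A2, CD55 and ICAM4 on the mean. Without a filter, the single-group calls of STOM, CD44 and AQP1, those of SLC4A2 except with LK, and those of CD55 and ICAM4 on the mean were lost. When each fit held the compared groups alone, the calls of STOM with L, CD44 with L and LK, AQP1 with KL and SLC4A2 in all 4 groups were lost. A pseudocount of 0.1 and the replicate block each ended the calls of CD44 with L (adjusted p = 0.0528 and 0.0600) and of ICAM4, and the block ended that of SLC4A2 with K.

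**Figure D4:**
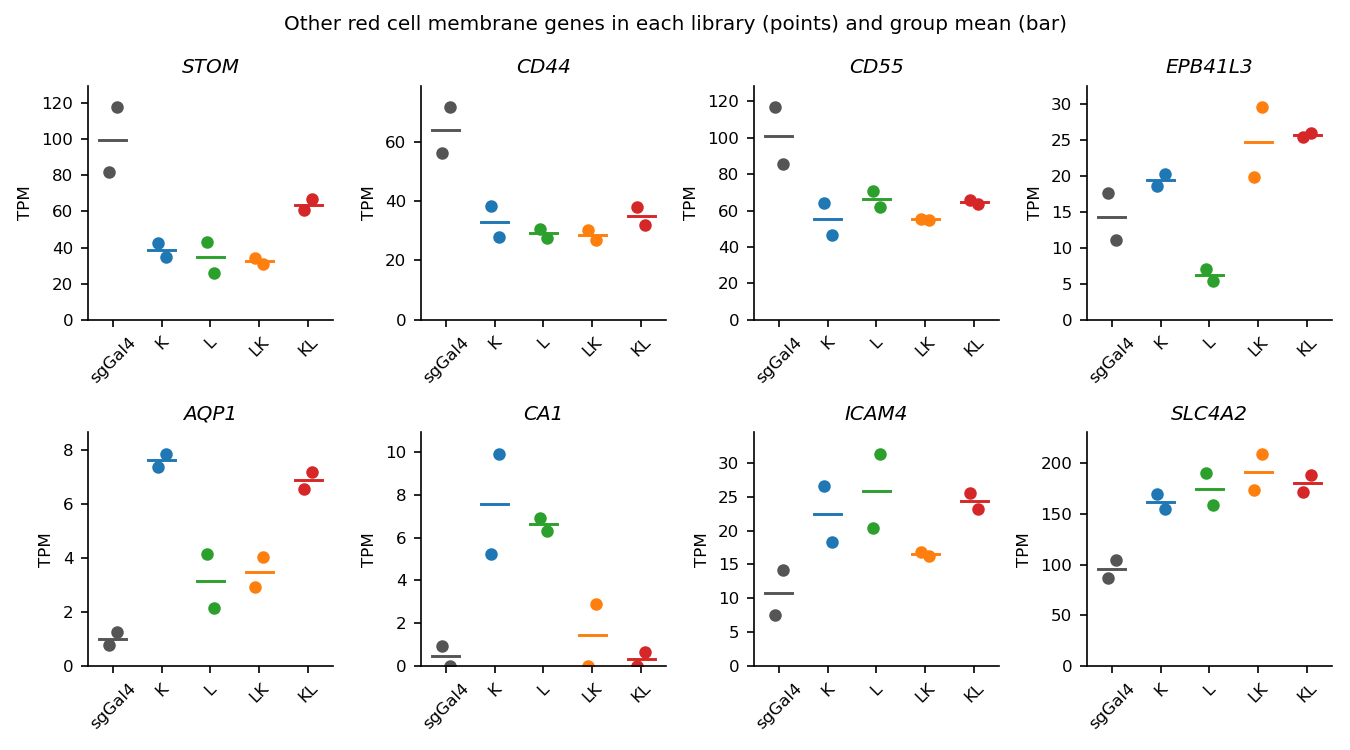
TPM of 8 other membrane genes (vertical axes, linear from 0) in the 2 libraries of each group, with the group mean as a bar. STOM, CD44 and CD55 are highest and SLC4A2 lowest in sgGal4, where SLC4A2 is at 87.1 and 104 TPM against 154 to 209 TPM elsewhere.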

How the data were processed

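RNA-seq was read in 10 libraries, 2 for each of 5 groups taken from the labels. The labels name a NEBNext poly(A) and directional library kit, while the methods of the study name the Ovation system, and which was used is not settled here. The authors aligned reads to hg19 with STAR (version 2.5.2b), used only reads that map to 1 place, and deposited 1 TPM value per gene symbol from RSEM. TPM keeps no read number, so depth is unknown, no counting interval was given, and the number of libraries limits the precision. All 10 TPM columns were used, and 0 columns of single samples were set aside.

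From these, log2(TPM + 1) was fitted in limma (version 3.58.1, R version 4.3.3) for the 10127 genes that averaged at least 1 TPM. The 5 groups shared 1 fit (5 residual degrees of freedom) whose variances were moderated with a trend on the mean, and p-values were adjusted by Benjamini and Hochberg's method over all genes. Changes of low genes are understated on this scale. The count model DESeq2 that the authors name was not run on TPM. The comparisons were each HS2 group and their mean against sgGal4, the mean of LK and KL against that of K and L, LK against KL, K against L, and any difference among the groups. Alternatives were another pseudocount, no filter or a filter at 10 TPM, median-of-ratios scaling, quantile normalization, removal of mitochondrial genes, no trend, only the groups compared, a replicate block, and each library left out. The fit was tested on simulated data with 200 changed genes.

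The members and lists were chosen with earlier results of these data known. Named genes were the 8 members, list genes past the threshold against sgGal4, the 2 genes most like a member called in the test of any difference, KDM1A, ZNF10 and HBE1. GYPE, EPB41L3, CD3D, GP1BB, markers at 0 and all named erythroid markers other than HBE1 were named after their values were seen. Some genes of the lists are not reported here. Python (version 3.11.15), numpy (2.4.6), pandas (2.3.3) and matplotlib (3.10.9) were used for tables and plots.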

Additional observations from a re-analysis of the deposited data

Results flagged for a closer look

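For GYPB, both libraries labelled L lay above both sgGal4 libraries, while both LK and both KL libraries lay below them. The log2 difference from sgGal4 was larger with L than with LK by 0.94 and than with KL by 1.12, and these 2 differences were not tested as such. For SLC4A1, both K libraries lay above and both LK libraries below the sgGal4 pair, and the log2 differences were 2.18 apart, which was likewise not tested as such and rests on values of at most 8.37 TPM. The test of any difference among the 5 groups did not pass for either gene (limma, adjusted p = 0.0946 for GYPB and 0.266 for SLC4A1).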

How the results depend on the processing

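Over 40 named values and 737 recomputed ones, no sign changed, but many of these signs could not change. The value for any difference among the groups is a largest difference and is always positive. Changing the filter, the trend, the replicate block or the groups fitted left a log2 fold change as it was. So did leaving out a library outside the comparison. The number of members called with K rose from 0 to 1 (EPB41) with a filter at 10 TPM, median-of-ratios scaling, quantile normalization or mitochondrial genes removed. It fell from 1 to 0 without the trend with KL (EPB41 adjusted p = 0.103), for the mean of the HS2 groups (0.197) and for any difference (0.252), and without a filter for the mean (0.0518) and for any difference (0.0897), where 14466 genes were tested. Leaving out 1 library gave 0 to 1 members called with KL, for the mean and for any difference. The lone library left in a group was then assumed to vary like the others. In the other 5 comparisons 0 members were called under every setting run. Over all genes the calls with KL numbered 138, and between 66 (only the groups compared) and 202 (mitochondrial genes removed) otherwise, or 49 to 167 without a library. For the mean they numbered 330, and 99 without the trend. The median over all genes with LK was 0.03, and -0.09 with mitochondrial genes removed. Same-numbered libraries did not deviate together across genes (10 correlations, from -0.02 to 0.02). Such a correlation does not see a shift common to all genes and could miss a batch confined to few genes. Whether same-numbered libraries shared a batch is therefore unknown. With the replicate block 1 member was called with KL (EPB41, adjusted p = 0.00710), 1 for the mean and 1 for any difference, 0 in the other comparisons, and 127 genes with KL. The cause of these changes was not tested. TPM sets no depth limit that could be computed.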
